A study of Mus musculus with 4 samples.

Results

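The genes described here are 9 double-stranded RNA sensors, adaptors and kinases: Ifih1, Ddx58, Dhx58, Eif2ak2, Mavs, Tlr3, Ddx60, Tbk1 and Ikbke. They were taken by name, with earlier results of these data known, from the 24421 genes of the count tables, and all 9 were found there. They were followed in lung endothelial cells (ECs) in which the RNA-editing enzyme ADAR1 could be deleted. ECs came from 2 male C57/BL6 mice of independent litters, aged 2 weeks, both carrying the inducible ADAR1 knockout (i-KO) with exons 12 to 15 of Adar flanked by lox sites. From each mouse, 1 culture was left non-induced (CON) and 1 received tamoxifen (TM) to delete the gene, which gave 4 libraries, EC1 CON and EC1 TM for the first mouse and EC2 CON and EC2 TM for the other. No tamoxifen-treated cells without lox sites were analysed here, so the effect of the drug and that of the deletion cannot be told apart. The cells were selected on CD31 and ICAM-2 and were grown in culture before induction. The labels call the knockout EC-specific, and the promoter that drives Cre in the inducible line is not given in the sources used here.

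ADAR1 converts adenosine to inosine in double-stranded RNA, and inosine is read as guanosine by sequencing. Unedited double-stranded RNA can be taken for viral RNA by cytosolic sensors. Ifih1 encodes MDA-5, which senses long duplexes, Ddx58 encodes RIG-I, which senses short duplexes with a 5′ triphosphate, and Dhx58 encodes LGP2, a related helicase without the signalling domain. MDA-5 and RIG-I signal through Mavs, an adaptor on the mitochondrial membrane, to the kinases Tbk1 and Ikbke, which phosphorylate the transcription factors that switch on interferon genes. Eif2ak2 encodes PKR, a kinase that stops translation when it binds double-stranded RNA, Tlr3 encodes the receptor for it in endosomes, and Ddx60 encodes a helicase linked to RIG-I-like receptor signalling. Several of these genes are themselves interferon-stimulated genes (ISGs).

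2 measures of RNA level were available. The first was the number of reads counted per gene. Only 0.823% to 0.858% of the total of each count table was on genes, that is 1095488 to 1778732 reads per library, against 92.8% to 93.9% assigned to no gene. The library kit marks strand and the counter was run with default settings, under which reads opposite to the gene's strand may be the ones counted. Whether that is so was not tested, but Chrnb2, which shares 1365 exonic bases with Adar on the opposite strand, had counts of 70 and 447 in CON and TM of EC1 and 76 and 563 in those of EC2. These were above the counts of Adar itself, at 9, 47, 16 and 71 in the same order. The second measure was the read depth at positions where a library had an altered base called. The median depth over the listed exonic and untranslated positions of a gene was scaled to 1e8 reads of the count table total and is called exonic site depth here. It is a depth per base, so that genes of different length can be compared, but a position enters only once an altered base has been seen there. The 9 genes held 1378 of the 1205261 sites of the table. Values are given in that order throughout, CON then TM of EC1 followed by CON then TM of EC2, with n = 2 libraries per group.

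The deletion was visible in Adar. Across the whole gene, exonic site depth was 109, 485, 121 and 453, a rise of 2.03 ± 0.27 (SE) on the log2 scale (limma, adjusted p = 2.83e-06). In the deleted exons 12 to 14, in contrast, EC1 CON listed 3 sites (median 145 reads deep) and EC1 TM listed none, while EC2 CON listed 1 site with 169 reads and EC2 TM listed 2 sites with a median of 65.5 reads. Exon 15, which also holds the 3′ untranslated region, did not follow exons 12 to 14, with a median of 99, 422, 156 and 835 reads. All 10 endothelial markers had a depth in every library, from 95.6 to 156 for Tek, an angiopoietin receptor, up to 4401 to 5316 for Cdh5, the VE-cadherin gene. Their summed depth was 20779, 17253, 26196 and 19013. The median log2 change of the 10 was -0.54 and that of each was below 0, and 1 passed the test as lower in TM, the tight junction gene Cldn5. None of the 8 leukocyte markers had a listed exonic site in all 4 libraries, and the 3 of 6 fibroblast and smooth muscle markers with a depth summed to 311, 117, 399 and 143, lower in TM of both mice. The part of other cell types in the results was not tested.

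Exonic site depth rose in 5 of the 7 sensor and kinase genes that could be tested, and none was lower (limma; 0 lower at an unadjusted p under 0.05). Over all 6836 genes of the fit, 6.39% were higher in TM and 5.44% lower, and 54.0% of the calls were higher. With the median gene set equal in all libraries that share was 39.4%, and the 5 genes stayed higher. With mouse as a block 9.7% of genes were higher and 9.7% lower. The median change of the 7 genes was 2.06 on the log2 scale, against 0.0116 for all genes tested. The 2 others, Mavs and Ddx60, had fewer than 3 listed sites in at least 1 library. Because bulk RNA was measured, more cells expressing a gene and more RNA per cell cannot be told apart.

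**Figure D1:**
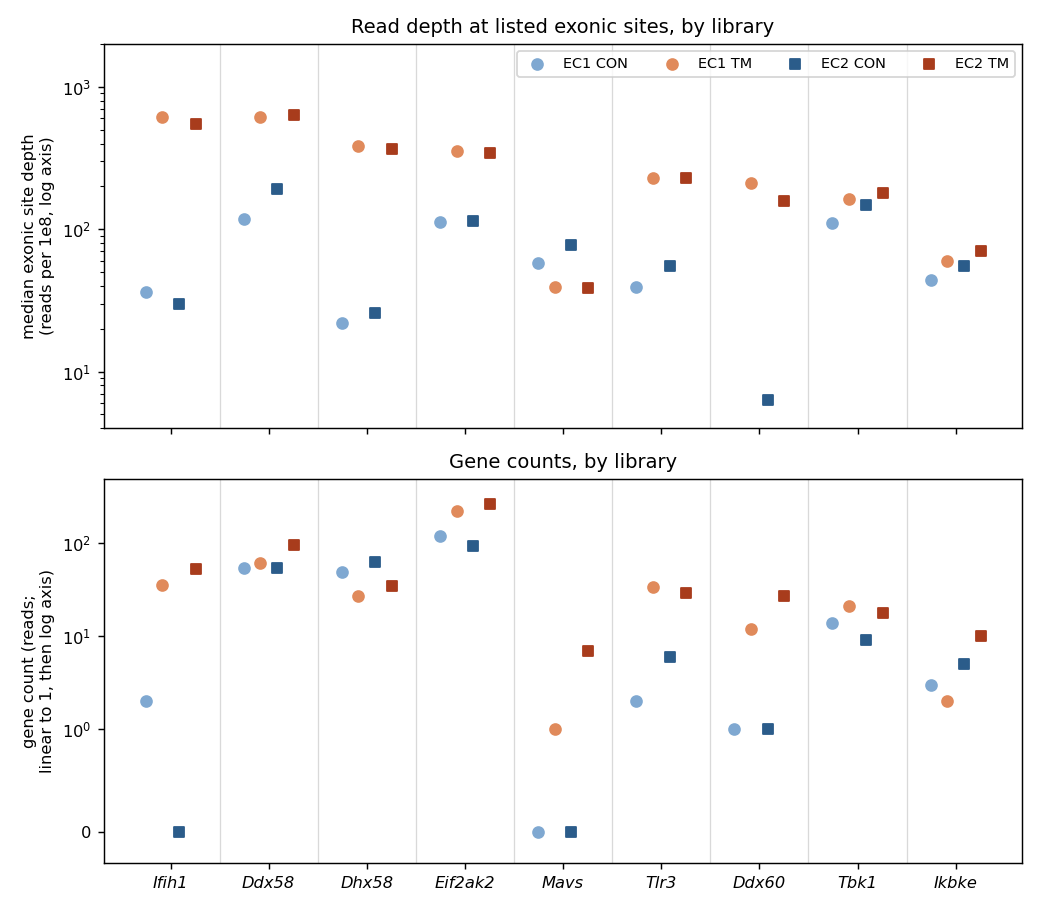
Exonic site depth (upper panel, reads per 1e8, log axis) and gene counts (lower panel, reads, linear up to 1 and logarithmic above) of the 9 genes, with 1 point per library (circles for mouse EC1, squares for EC2, blue for CON, red for TM). Ifih1 and Dhx58 lie near 22 to 36 in CON and above 360 in TM in the upper panel, while Tbk1 and Ikbke barely separate, and Dhx58 runs the other way in the lower panel.

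Ifih1 (MDA-5) had the largest fitted change of the 7 genes tested by depth, close to that of Dhx58. Its exonic site depth was 36.4, 612, 29.96 and 547, so that the TM libraries lay 16.8-fold above CON in EC1 and 18.3-fold in EC2. The fitted rise was 4.13 ± 0.28 (SE) on the log2 scale, or 17.5-fold (limma, adjusted p = 2.22e-12), and ranked 21 of 6836 genes from the largest rise. Both CON libraries were far below both TM libraries. The number of listed exonic sites went from 4 and 5 in CON to 50 and 83 in TM. The gene count was 2, 36, 0 and 53, which was a rise as well (log2 change 4.97 ± 0.76, edgeR, adjusted p = 2.64e-05). Without EC1 CON this count change was 8.37, and without EC2 CON 4.07. With so few CON reads the ratio of summed counts, 35.9, has an exact 95% interval from 9.64 to 301 that covers counting error only. Among genes called by counts, 4.39% of 7899 were higher in TM and 3.35% lower.

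Dhx58 (LGP2) rose almost as much by depth. Its exonic site depth was 21.8, 384, 25.8 and 368, or 17.6-fold and 14.3-fold higher in TM of the respective mouse (log2 change 3.99 ± 0.28, limma, adjusted p = 7.66e-12). The CON and TM libraries were widely separated. Its gene count went the other way, with 49, 27, 63 and 35 reads (log2 change -1.20 ± 0.39, edgeR, adjusted p = 0.0527), and with mouse as a block this count difference passed the threshold as lower in edgeR (adjusted p = 0.0141) but not in DESeq2 (adjusted p = 0.324). In that edgeR fit 7.6% of genes were higher and 7.39% lower. In the exons of Dhx58, 141 of 3272 bases lie under an exon of the opposite-strand gene Dhx58os. Set against the read pairs that the median depth implies over the longest coding transcript, the Dhx58 count held 14.2% and 14.3% of them in the CON libraries of EC1 and EC2, and 0.447% and 0.385% in TM. Over all 9 genes and the libraries with a depth, that share had a median of 0.383%, so the CON counts of Dhx58 stand at the top of the range. The part of strand or overlap in this disagreement was not tested.

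Ddx58 (RIG-I) was the sensor with the highest CON depth. Its exonic site depth was 117, 616, 192 and 637, a rise of 5.26-fold in EC1 and 3.31-fold in EC2 (log2 change 2.06 ± 0.29, limma, adjusted p = 5.58e-06). Its gene count of 54, 61, 55 and 97 showed little difference (log2 change 0.17 ± 0.35, edgeR, adjusted p = 0.857). Counts made up 1.81% and 1.04% of the implied read pairs in CON and 0.392% and 0.383% in TM. The annotation places no opposite-strand exon over Ddx58. The cause of the difference between the 2 measures was not tested.

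Ddx60, which has been linked to RIG-I-like receptors, was nearly silent in CON. EC1 CON listed no exonic site and EC2 CON listed 1, with 9 reads. EC1 TM listed 28, at a median of 280 reads, and EC2 TM listed 35, at a median of 328 reads. Scaled, these TM medians were 212 and 158. No depth test was made for it. Its gene count was 1, 12, 1 and 27, a log2 change of 3.74 ± 0.88 (edgeR, adjusted p = 0.00503). Ddx60 passed the filter on low counts through the TM libraries alone, as did Ifih1 and Tlr3, so the count results of these 3 genes are not added up as support. The ratio of summed counts was 15.7, with an exact 95% interval of 4.07 to 134. This call was lost without either CON library or without EC1 TM, with adjusted p from 0.0647 to 0.0826, and under DESeq2 (adjusted p = 0.141).

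The endosomal receptor Tlr3 rose by depth. Its exonic site depth was 39.1, 228, 55.0 and 230.3, or 5.83-fold and 4.18-fold higher in TM (log2 change 2.30 ± 0.29, limma, adjusted p = 6.46e-07). The gene count, which passed the filter on low counts through TM alone, was 2, 34, 6 and 29 (log2 change 2.65 ± 0.64, edgeR, adjusted p = 0.00666). In the exons of Tlr3, 381 of 5207 bases lie under an exon of the opposite-strand gene Gm45542. CON and TM did not overlap in either measure. The count call was lost without EC1 CON (adjusted p = 0.0746), without EC1 TM (adjusted p = 0.173) and under DESeq2 (adjusted p = 0.0961), while the depth call was kept in each of its 9 alternatives.

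Eif2ak2 (PKR) rose from a higher CON level, with a smaller fitted change. Its exonic site depth was 113, 354, 115 and 342, which is 3.13-fold and 2.98-fold (log2 change 1.61 ± 0.27, limma, adjusted p = 8.81e-05). The 2 mice were nearly identical in both conditions. The gene count was 120, 225, 93 and 266 (log2 change 0.88 ± 0.31, edgeR, adjusted p = 0.0747). It passed the threshold in edgeR with mouse as a block (log2 change 0.88 ± 0.23, adjusted p = 0.00213), but not in DESeq2 with the block (adjusted p = 0.0952), and it passed where only genes with at least 10 counts in every library were tested (adjusted p = 0.0471).

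The adaptor Mavs was lower in TM of both mice by depth, on few sites. Its exonic site depth was 58.2, 39.1, 77.3 and 38.6, so that TM lay at 0.671 of CON in EC1 and 0.499 in EC2. These medians rest on 2, 4, 7 and 1 sites, and no test was made. Its gene count was 0, 1, 0 and 7. Against a floor of 3 counts over the CON group, the TM counts were 2.15-fold higher, a ratio that allows for no counting error in TM. The 2 measures point in opposite directions and both rest on few values.

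The kinases downstream of Mavs showed no detectable change. Tbk1 had an exonic site depth of 110.5, 164, 148 and 179 (log2 change 0.42 ± 0.28, limma, adjusted p = 0.384). Ikbke had 44.3, 59.9, 55.0 and 69.9 (log2 change 0.39 ± 0.30, limma, adjusted p = 0.476). In both genes TM was above CON within each mouse, by 1.49-fold and 1.21-fold for Tbk1 and by 1.35-fold and 1.27-fold for Ikbke. The Tbk1 count was 14, 21, 9 and 18 (log2 change 0.46 ± 0.57, edgeR, adjusted p = 0.729), and the Ikbke count of 3, 2, 5 and 10 was too low to be tested.

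**Figure D2:**
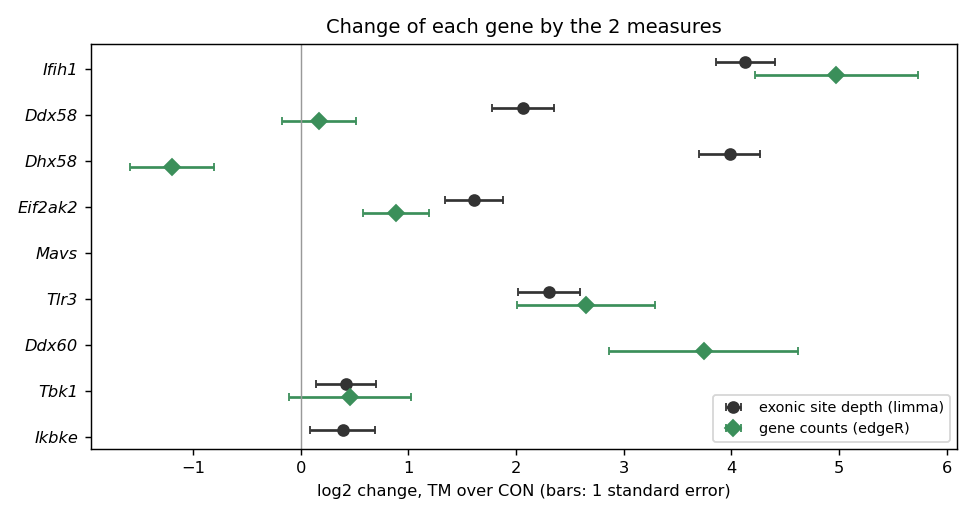
Log2 change, TM over CON, of each gene by exonic site depth (black circles, limma) and by gene counts (green diamonds, edgeR), with bars of 1 standard error; a missing symbol means the gene was not tested by that measure. Tlr3 and Tbk1 lie close together by the 2 measures, Ifih1 is higher by counts, Ddx58 and Eif2ak2 are higher by depth, and Dhx58 has opposite signs at 3.99 and -1.20.

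The order of the genes differed between the conditions. In CON, Ddx58, Tbk1 and Eif2ak2 had the highest exonic site depths, and the range of Tbk1 over the 2 libraries overlapped those of Ddx58 and Eif2ak2, which did not overlap each other. They were followed by Mavs, Ikbke and Tlr3, then Ifih1 and Dhx58, and Ddx60 with 6.27 in the 1 library that listed it. The ranges of Ikbke and Tlr3 overlapped as well, whereas those of Ifih1 and Dhx58 did not. In TM, Ddx58 and Ifih1 led at 547 to 637 without overlapping, followed by Dhx58 and Eif2ak2 at 342 to 384, Tlr3, then Ddx60 and Tbk1, with Ikbke and Mavs last. The ranges of Ddx60 and Tbk1 overlapped, and those of Dhx58 and Eif2ak2 did not.

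**Figure D3:**
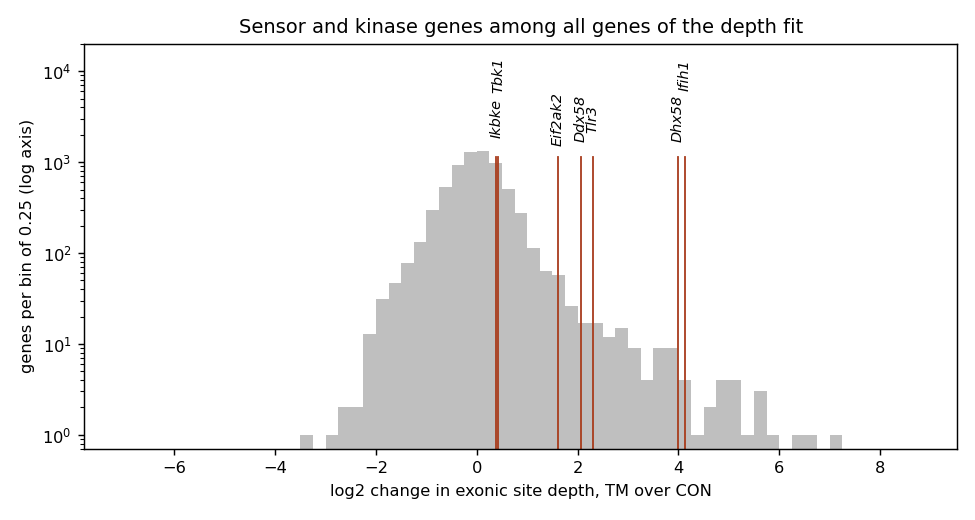
Distribution of the log2 change in exonic site depth, TM over CON, over all 6836 genes tested (grey bars of width 0.25, log count axis), with red lines at the 7 sensor and kinase genes that could be tested. Ifih1 and Dhx58 are ranked 21 and 24 from the largest rise, Tlr3, Ddx58 and Eif2ak2 94, 111 and 175, and Tbk1 and Ikbke 1412 and 1510.

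Ddx58 and Eif2ak2 had a higher median depth in TM on both sides of the transcript midpoint. Before the midpoint of the longest coding transcript of Ddx58, the median site depth was 139, 702, 217 and 719, and after it 122, 578, 185 and 572. For Eif2ak2 the corresponding values were 146, 439, 180 and 463 before the midpoint and 94.7, 284, 103 and 296 after it. In Ifih1, the coding exons had a higher depth than the 3′ untranslated region in TM, with medians of 810.5 and 265 reads in EC1 TM and 1217 and 315 reads in EC2 TM. No CON library listed a site in the 3′ untranslated region of Ifih1. By these medians Ddx58 showed the same order in all 4 libraries, with 169, 837, 276 and 1403 reads in coding exons and 48, 306, 64 and 349 in the 3′ untranslated region. Its 3′ untranslated sites ranged from 167 to 2301 reads in EC2 TM, however, and some lay outside the longest coding transcript. Near the end of that transcript, at positions 3761 and 3777 of 3874, EC2 TM had 2301 and 2267 reads. The low 3′ untranslated medians of Ddx58 thus cannot be read as a fall in depth at the end of this transcript. Its medians were nonetheless lower after the midpoint than before it in each library.

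**Figure D4:**
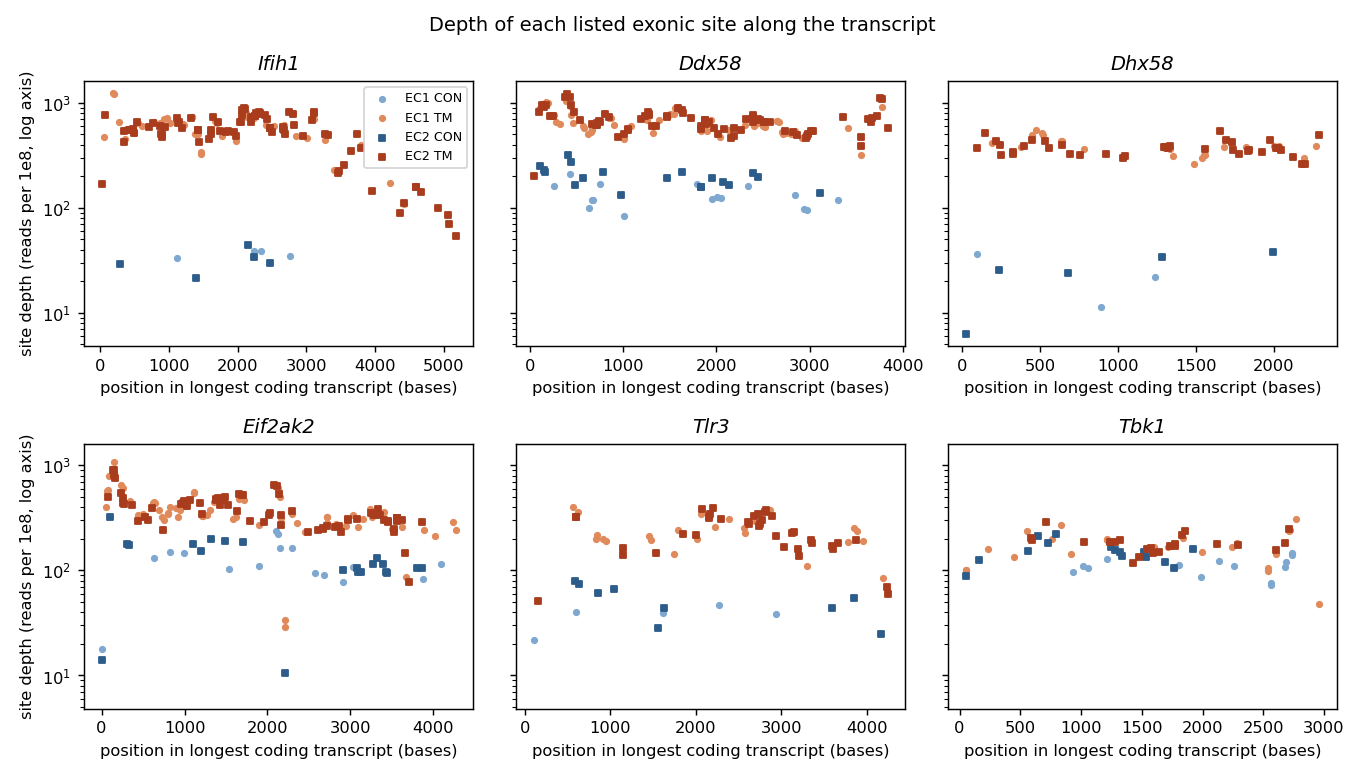
Depth of each listed exonic site (reads per 1e8, log axis) against its position in the longest coding transcript (bases), for 6 genes, with 1 point per site and library. Most TM points (red) lie above the CON points (blue) where both are listed in Ifih1, Ddx58, Dhx58, Eif2ak2 and Tlr3, with some low TM points in Eif2ak2, and they mix in Tbk1. In the 3′ part of Ifih1 TM points fall and no CON site is listed.

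Introns gave a thinner measure. Across 5539 genes the median log2 change of intronic site depth was -0.16, and 0.903% of genes were higher and 0.506% lower, with 64.1% of calls higher or 89.1% when the median gene was set equal. Dhx58 was higher in TM by intronic depth, with 8.27, 45.1, 7.66 and 36.9 reads per 1e8 (log2 change 2.36 ± 0.57, limma, adjusted p = 0.00375). This call was lost without EC1 TM (adjusted p = 0.149), without EC2 TM (adjusted p = 0.127) and with mean depths (adjusted p = 0.133). Eif2ak2 had 11.3, 37.9, 7.66 and 32.3 (log2 change 1.91 ± 0.57, limma, adjusted p = 0.0530) and passed the threshold with mouse as a block (adjusted p = 0.0478), where 0.812% of genes were higher and 0.235% lower. Ddx58, Tbk1 and Ikbke had log2 changes of 1.14, 0.49 and 0.56 and did not pass. Ifih1 listed 1 intronic site in each CON library, at 7 reads and 1 read, against 36 and 39 sites with a median of 54 reads in each TM library, and was not tested. The intronic depth of Dhx58 was 0.379 and 0.297 of its exonic depth in CON and 0.118 and 0.1004 in TM, so that the exonic depth differed more.

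The promoters of these genes were searched for the letters that the interferon-stimulated response element has at its core. Promoter sequence from RefSeq (GRCm38.p6, 250 bases before to 50 after the start) was matched for 8 of the 9 genes, all but Dhx58. The pattern was GAAA, any 2 bases, GAAA, or its opposite-strand form TTTC, any 2 bases, TTTC, and hits were capitalised below. It was present in 4 of the 8 promoters and in 3.44% of 32851 promoters of the same length. The 5 windows are shown because the genes that hold them, Ifih1, Ddx58, Ddx60 and Eif2ak2, are all among those called higher by at least 1 measure.
Ifih1 (chr2:62646206-62646235, minus strand, hit 33 bases into the gene): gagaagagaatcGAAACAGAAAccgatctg
Ddx58 (chr4:40239804-40239833, minus strand, hit 3 bases into the gene): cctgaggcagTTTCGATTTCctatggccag
Ddx60 (chr8:61928024-61928053, plus strand, hit 53 bases before the start): gtgatgaatgGAAACCGAAActtaaagctt
Ddx60 (chr8:61928058-61928087, plus strand, hit 19 bases before the start): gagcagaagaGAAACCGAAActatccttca
Eif2ak2 (chr17:78882535-78882564, minus strand, hit 19 bases into the gene): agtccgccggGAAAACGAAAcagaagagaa
The letters were not found in this window of Tlr3, which also rose, nor in those of Mavs, Tbk1 and Ikbke. The palindromic pattern TTCNNNGAA, which resembles the gamma interferon activation site, occurred in 8.3% of all promoters and in 1 of the 8, that of Eif2ak2, 178 bases before the start. A match is a description of the letters and not evidence of binding.

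Little editing was called in the sensors themselves. A site was taken as a potential editing site where 5 or more reads covered it, 3 or more of them were altered and the rate lay between 0.05 and 0.95. These limits do not tell editing from a DNA variant, an influence that the paper also names for its site calls. Ifih1, Ddx58, Dhx58, Eif2ak2, Tlr3 and Ddx60 had no such site in any library, although Ifih1 alone listed 88 and 123 sites in the TM libraries. Of the exonic sites listed for the 9 genes, 66 of 69, 307 of 309, 86 of 92 and 393 of 395 had a rate under 0.05, and 61, 269, 81 and 343 had a single altered read. The additional exonic sites listed in TM were thus almost all at low rates. Passing sites were found in Mavs, Tbk1 and Ikbke only, 9 in all.

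Mavs carried them in a repeat past its end. The site table places 14 sites in the 1 kb class downstream of Mavs, whose annotation ends at position 131248025 of chromosome 2, on the plus strand. 2 passing sites lay in a B1_Mus1 repeat (a SINE, chr2:131248086-131248209). At position 131248114, 8 of 8 reads carried G in EC1 CON and 2 of 7 in EC1 TM, and 5 of 7 in EC2 CON and 2 of 8 in EC2 TM. The rates were 100.0% (95% Wilson interval 67.6 to 100.0), 28.6% (8.22 to 64.1), 71.4% (35.9 to 91.8) and 25.0% (7.15 to 59.1). TM was lower in both mice, but the EC2 difference was within counting error (Fisher's exact test, two-sided, p = 0.132, adjusted p = 0.764), and EC1 was not tested since the site passed the limits in neither library. At position 131248178, 3 of 7, 1 of 10 and 5 of 14 reads were altered in EC1 CON, EC1 TM and EC2 CON, and EC2 TM did not list it (EC1 Fisher's exact test, p = 0.25, adjusted p = 1.0). A second SINE next to it, B1_Mur1 (chr2:131248332-131248459), listed 2 and 3 altered sites in the CON libraries and none in TM. In EC1 CON 2 of 12 reads over these sites were altered and in EC2 CON 3 of 25, and none of the sites passed the limits. Sites that TM did not list have no depth there, so no rate can be compared. Over the whole table, 0.959% of 9800 sites were called different in EC1 and 2.46% of 10402 in EC2, and these tests compare 2 libraries each, not the conditions.

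**Figure D5:**
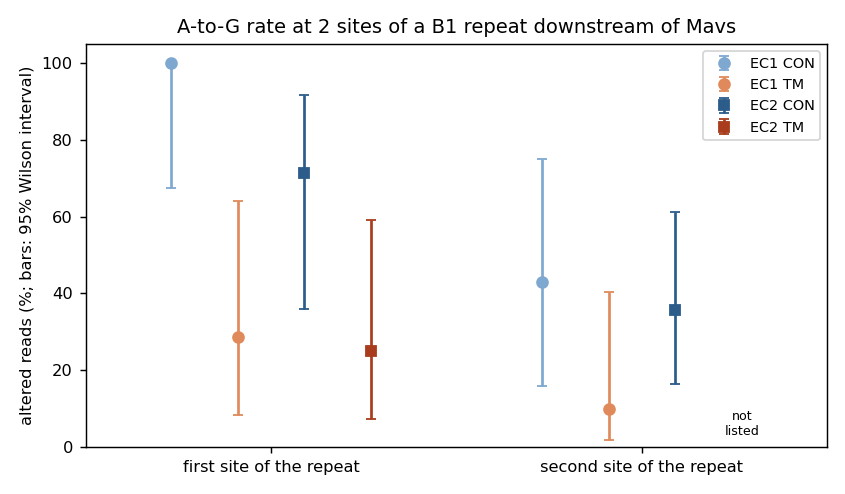
Share of altered reads (%) at the 2 passing sites of the B1_Mus1 repeat downstream of Mavs in each library, with 95% Wilson intervals from 7 to 14 reads per value; EC2 TM did not list the second site. The TM points lie below the CON points of the same mouse, and the intervals within a mouse overlap except for EC1 at the first site.

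At the 4 passing sites of Ikbke, EC1 held altered reads only, in CON as in TM, and EC2 held a mixture in both. Whether these sites are edited or are DNA variants that differ between the mice was not tested. At position 131269823 of chromosome 1, in exon 13 of 22, the altered base made up 61 of 61 and 106 of 106 reads in EC1 CON and TM, and 55 of 95 and 71 of 141 in EC2 CON and TM (57.9% and 50.4%, Fisher's exact test, p = 0.288, adjusted p = 0.937). At position 131271939, in exon 9, it made up 46 of 46 and 57 of 57 in EC1, and 30 of 74 and 48 of 102 in EC2 (40.5% and 47.1%, Fisher's exact test, p = 0.443, adjusted p = 0.997). The transcript sequence around each site (GRCm38, GENCODE vM21) is shown with the altered A in capitals, since these are the only exonic sites of the 9 genes that passed the limits.
Ikbke 131269823: ccctcctctacctcAgcagcagcctgggc
Ikbke 131271939: agactgtccatgggActgcagaaccagct
The rule of a rate difference of at least 0.05 would class position 131269823 as higher in CON and position 131271939 as higher in TM within EC2, although neither difference exceeds counting error.

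Tbk1 had 3 passing sites, all intronic. One lay in a B1_Mur3 repeat at position 121549599 of chromosome 10, with 3 of 57, 1 of 47 and 3 of 77 altered reads in EC1 CON, EC2 CON and EC2 TM, and was not listed in EC1 TM. At position 121568938, 9 of 10 and 11 of 12 reads were altered in EC1 CON and TM and every read in EC2, 3 of 3 and 18 of 18. At position 121579788, 4 of 9, 3 of 6, 1 of 4 and 7 of 14 reads were altered. A further 17 sites of Tbk1 and 2 of Ikbke were altered in every read of all 4 libraries. Of these, 11 in Tbk1 and 1 in Ikbke had at least 5 reads in every library and were left out by the upper limit on the rate. Whether the sites of this paragraph are edited or are DNA variants was not tested.

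Regulators and partners of these genes were taken from lists by function, and their calls by depth stand beside 6.39% of all genes higher in TM. Of 12 regulators of RIG-I-like receptors, 7 could be tested by exonic site depth and 1 was higher, Trim25, the ubiquitin ligase of RIG-I, with 154, 528, 204 and 451 (log2 change 1.46 ± 0.28, limma, adjusted p = 0.000437). Without EC1 TM this call was lost (adjusted p = 0.0633). Of 14 downstream adaptors, kinases and interferon regulatory factors, 11 were tested and 1 was higher, the TBK1-binding adaptor Azi2 (log2 change 0.88 ± 0.29, limma, adjusted p = 0.0405), whose count did not pass (log2 change -0.67, edgeR, adjusted p = 0.198) and was lower in edgeR with mouse as a block (adjusted p = 0.0167) but not in DESeq2 with the block (adjusted p = 0.225). The Azi2 depth call was lost without EC1 CON, EC1 TM or EC2 TM (log2 changes 0.55, 0.83 and 0.93). It was also lost with at least 1 listed site required per library (limma, adjusted p = 0.113). Irf7, a transcription factor of the same list that amplifies interferon, was singled out after its values were seen. By exonic site depth it had 56.4, 1654, 53.3 and 2040.3 on 2, 32, 4 and 47 sites, too few in EC1 CON for a test, and its count of 75, 104, 55 and 186 did not pass (log2 change 0.78 ± 0.32, edgeR, adjusted p = 0.157) except in edgeR with mouse as a block (adjusted p = 0.0312; DESeq2 with the block, adjusted p = 0.382).

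Of 10 endosomal and DNA sensors and adaptors, 1 could be tested by exonic site depth, Tmem173. It did not pass (log2 change -0.32 ± 0.28, limma, adjusted p = 0.544). By counts 3 others could be tested and all 3 were higher. Zbp1, a sensor of Z-form nucleic acid, had 0, 19, 0 and 48 reads (edgeR, adjusted p = 3.44e-05). Against a floor of 3 counts over the CON group this was 18.0-fold higher, with no counting error allowed for in TM. Aim2, a DNA sensor, had 2, 45, 2 and 71 (edgeR, adjusted p = 4.87e-06), although its exonic site depth of 9.77, 4.55, 13.9 and 28.9 overlapped between the groups. Myd88, the adaptor of most Toll-like receptors but not of Tlr3, had 3, 18, 7 and 52 (edgeR, adjusted p = 0.0114), a call lost without EC1 CON (adjusted p = 0.106) or EC2 TM (adjusted p = 0.387) and under DESeq2 (adjusted p = 0.166). These 3 passed a filter on low counts largely through TM, so their number is not read as a share of the list.

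Of 7 genes around eIF2, its kinases and its phosphatase, 6 were tested by depth and 2 were higher, against 6.39% of all genes. Both encode regulatory subunits of the phosphatase that reverses the action of PKR on eIF2. Ppp1r15a had 90.2, 401, 106 and 488 (log2 change 2.18 ± 0.28, limma, adjusted p = 9.33e-07) and Ppp1r15b 93.6, 191, 111 and 221 (log2 change 1.01 ± 0.28, limma, adjusted p = 0.0142). The Ppp1r15b call was lost without EC1 CON, EC1 TM or EC2 TM (log2 changes 0.89, 1.12 and 0.91). It was also lost with at least 1 listed site required per library (limma, adjusted p = 0.0537). At sites listed in both libraries of the mouse it was lost too (limma, adjusted p = 0.186), but not at sites listed in all 4 libraries (limma, adjusted p = 0.00443). By counts Ppp1r15a and Ppp1r15b did not pass (edgeR, adjusted p = 0.0644 and 0.106) except in edgeR with mouse as a block (adjusted p = 0.0281 and 0.0326). None of the 10 other DExD/H helicases linked to RNA sensing passed by depth (limma; log2 changes from -0.44 to 0.50, 0 at an unadjusted p under 0.05), though Ddx3x passed as lower with the median gene set equal (log2 change -0.52, adjusted p = 0.0474). By counts Ddx3x was lower (log2 change -1.31 ± 0.33, edgeR, adjusted p = 0.00889) and Ddx21 higher (log2 change 1.25 ± 0.40, edgeR, adjusted p = 0.0499), and both lost that call when at least 1 library was left out. For Ddx3x this was EC1 TM (adjusted p = 0.128), and for Ddx21 EC1 CON, EC2 CON or EC2 TM (adjusted p from 0.151 to 0.248). The Ddx21 call was also lost under DESeq2 (adjusted p = 0.329), DESeq2 with the block (adjusted p = 0.331) and without a filter on low counts (adjusted p = 0.0578).

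The genes whose exonic site depth ran most like that of Ifih1 over the 4 libraries were Tor3a, Dhx58 and Ifi44, at a Euclidean distance of 0.337, 0.405 and 0.443 in centred log2 depth among 6835 genes. Ifi44 is a known ISG. This ranking uses 4 points that share their libraries and carries no test. By counts Tor3a had the opposite sign and did not pass (log2 change -0.42 ± 0.32, edgeR, adjusted p = 0.505). The Ifi44 count was higher (log2 change 3.76 ± 0.60, edgeR, adjusted p = 5.09e-05).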

How the data were processed

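RNA was measured in 4 libraries, CON and TM of 2 mice. Per the submitters' processing notes and the study's methods, the authors used Trimmomatic 0.38 on the read pairs of 101 bases, STAR 2.6.1a against mm10 and HTSeq 0.11.2, and deposited raw counts per gene. They called altered bases with BCFtools mpileup (version not given in the sources used here) and deposited the reads of each base and their altered fraction as the rate. Intervals cover counting error only, and a count of 0 allows 1.69 to 2.74 CPM. The tables' summary rows entered only the totals used for scaling depth.

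For counts, the quasi-likelihood test of edgeR 4.0.16 was used after filterByExpr and TMM. Log2 median site depth was compared with limma 3.58.1 in genes with at least 3 listed sites in each library, and editing with Fisher's exact test within each mouse. Benjamini-Hochberg adjustment ran over all genes or sites tested, at 0.05. The model held condition only. CON and TM of a mouse came from the same animal, so mouse was tried as a block, and deviations within a mouse correlated with r = 0.163 for counts, 0.10 for exonic and 0.200 for intronic depth. Other alternatives were DESeq2 1.42.0, other filters and scalings, and each library left out. With 2 cultures against 2, an exact permutation test could not have passed 0.05, and p-values rest on a spread shared over genes.

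Members and lists were chosen with earlier results of these data known. Named genes were the 9 members, Adar, list genes past the threshold (at most 4 per list, by smallest p) and the 3 genes most like Ifih1. Positions are 1-based. At all 795 exonic sites of the members the GENCODE vM21 transcript has A. On simulated data with 200 genes changed 4-fold, 97% were recovered from counts with 9 false calls, 60% from exonic depth with 0 false, and 0% from intronic depth. The genes changed in the count simulation were drawn only from those above a minimum mean count, with a common dispersion. Ddx60, Tlr3 and Tbk1 lie below that minimum, so the 97% does not cover them. Of 200 sites simulated to differ, 15.5% were recovered.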

Additional observations from a re-analysis of the deposited data

Results flagged for a closer look

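Sites upstream of Ddx60, in the class of positions within 50 kb before the gene, belong to none of the comparisons. In that class EC1 TM listed 9 sites and EC1 CON listed 1, and EC2 TM listed 8 sites and EC2 CON listed none. The median depth was 2 reads in EC1 TM and 17.5 reads in EC2 TM, against 1 read in EC1 CON. These sites were noted because both TM libraries listed more of them than either CON library. The difference was not tested, and Ddx60 itself had a count of 1 in each CON library and 12 and 27 in TM.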

How the results depend on the processing

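For the members, all 61 values of exonic site depth under the alternatives kept their direction and their side of the threshold. Only Ddx58 had enough sites listed in both libraries of the mouse for that alternative (log2 change 2.04), and no member had enough in all 4 libraries. Dhx58 and Tlr3 shared 0 exonic sites within a mouse, and Ifih1 shared 1 in each. For members other than Ddx58, the alternatives thus did not compare CON and TM at the same positions. By counts 43 of 54 did, 7 calls were lost, 3 were gained, and the Tbk1 change ranged from -0.0096 without EC1 TM to 0.86 without EC2 TM. By intronic depth 29 of 35 did. The number of genes called by counts was 612, against 365 under DESeq2 and 1184 with mouse as a block. By exonic depth it was 809, against 1442 with the median gene set equal, 1326 with mouse as a block, 119 with sites listed in both libraries of the mouse, 140 with sites listed in all 4 libraries, and 412 to 847 with 1 library left out. By intronic depth it was 78, against 32 with mean depths, 46 with the median gene set equal and 39 to 114 with 1 library left out. Sites called different in rate numbered 94 in EC1 and 256 in EC2. A rate difference of 0.05 without a test gave 11471 and 11715. Fewer genes were tested where sites had to be shared, and the cause of the other changes was not tested. Beyond the counts of Dhx58 and Eif2ak2 and the intronic depth of Eif2ak2, mouse as a block in edgeR and limma changed no call of a member. Too few listed sites left Ddx60 and Mavs without a depth test.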
